A study of Mus musculus with 24 samples.

Results

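The arrays described here measured how Th2 cells that lack BAF180 respond to a short stimulation. They number 6 of the 24 arrays of the series and were chosen by their labels alone, so that no measured value entered the choice. Resting BAF180-deficient Th2 cells gave 3 arrays and stimulated BAF180-deficient Th2 cells gave the other 3. The 6 arrays of WT Th2 cells, again 3 resting and 3 stimulated, were used as the comparison.

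BAF180-deficient cells came from conditional knockout mice (BAF180 cKO, labelled Pbrm1/BAF180 KO) and WT cells from WT mice, all labelled Balb/c and aged 4 to 6 weeks. The study's methods describe a floxed Pbrm1 allele deleted by Cre under the CD4 promoter, which acts late in thymocyte development, on a mixed background, so the strain differs between the descriptions. In every group CD4+CD62L+ naïve cells of 95% purity were plated on 1 µg/ml anti-CD3 and 2 µg/ml anti-CD28 with 10 ng/ml IL-4 and 10 µg/ml anti-IFN-gamma. IL-2 (100 U/ml) was added after 24 hours and the cultures were expanded from day 3. Stimulated cells then received 50 ng/ml PMA and 500 ng/ml ionomycin for 1.5 hours, and resting cells did not. Replicates carry the letters A, B and C, and nothing in the labels says which letters share a mouse, so that p-values measure the spread between these samples.

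PMA switches on protein kinase C, and ionomycin lets calcium into the cell and so activates calcineurin and NFAT. Together they bypass the T cell receptor and act on ERK, AP-1, NF-kappaB and NFAT within minutes. In a differentiated Th2 cell the first genes to rise are immediate early transcription factors, followed by cytokine genes whose chromatin was opened during differentiation, while transcripts that mark the resting state are lost. BAF180, the product of Pbrm1, is the polybromo subunit that distinguishes the PBAF form of the SWI/SNF chromatin remodelling complex.

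Values below are normalized intensities of Illumina bead arrays on the log2 scale, given in the order A, B, C, and a response is the stimulated minus the resting mean on that scale. A gene is called higher or lower when its brightest probe passed an adjusted p of 0.05 in limma and changed at least 2-fold. Pbrm1 checked the labels. Its level was 7.16, 7.23 and 7.02 in resting and 6.56, 6.90 and 7.15 in stimulated BAF180-deficient cells, against 9.06, 9.06 and 8.88 in resting and 8.52, 8.14 and 8.21 in stimulated WT cells. Every BAF180-deficient array therefore lay below every WT array, by 1.86 ± 0.23 (SE) at rest. A remnant of the signal was still detected on all 6 BAF180-deficient arrays, and whether the probes lie in the deleted part of the gene was not examined.

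Arrays of one group correlated with each other at r of 0.973 to 0.989 over the probes, and between 9205 and 10432 probes were detected per Th2 array. All 10 T cell markers were detected on every Th2 array. Of 9 Th2 markers, 6 were detected on all 3 resting arrays without BAF180, and Maf, a Th2 transcription factor, on only 1 of them. Summed B cell markers ran from 184 to 589 in resting and 147 to 351 in stimulated BAF180-deficient cells on the linear scale. In WT they ran from 145 to 453 and 137 to 238. Of 7 B cell markers kept, 2 were detected on all 3 resting arrays without BAF180, while Ms4a1 and Cd22 were undetected without BAF180. Summed CD8 and NK cell markers ran from 297 to 437 in resting BAF180-deficient cells and from 443 to 533 in resting WT cells, with no overlap, and from 363 to 575 and 481 to 575 after stimulation. Of 10 myeloid markers kept, 3 were detected on all 3 resting arrays without BAF180 and 5 on none, among them Lyz2 and Cd14. Summed myeloid markers ran from 904 to 1350 in resting and 936 to 1260 in stimulated BAF180-deficient cells. In WT they ran from 952 to 1280 and 1160 to 1460. The part of other cell types in the results below was not tested. In bulk samples fewer cells of a type and less RNA per cell cannot be told apart.

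The rapid response was broad without BAF180. Of 10419 genes, 536 rose and 692 fell at least 2-fold, which is 5.14% and 6.64% of the genes tested. In WT cells 609 genes (5.85%) rose and 743 (7.13%) fell by the same rule. Both genotypes shared 462 of the rises and 570 of the falls, and no gene rose in one and fell in the other.

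Genes called in only one genotype moved the same way in the other. The 74 genes called higher only without BAF180 were all above 0 in WT cells, with a median response of 0.90 there against 1.07 without BAF180. The 147 genes called higher only in WT cells were all above 0 without BAF180, where 105 of them passed the adjusted p in that direction and the median was 0.85 against 1.15. Among the falls, all 122 called only without BAF180 and all 173 called only in WT had the same sign in the other genotype. Of these, 85 and 130 passed the adjusted p in that direction in the other genotype, as did 57 of the 74 rises.

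**Figure D1:**
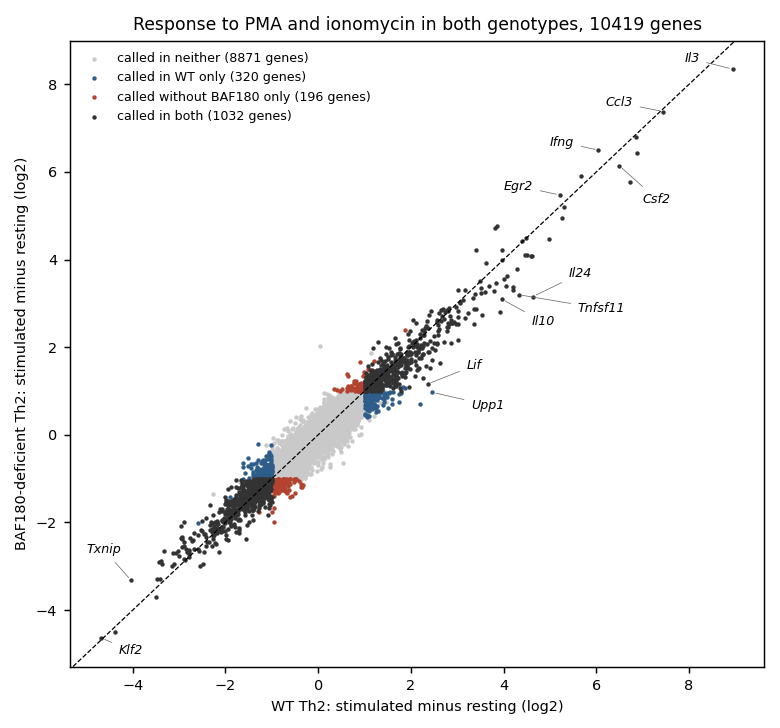
Each point is 1 of 10419 genes, placed by its response to PMA and ionomycin (stimulated minus resting mean of 3 arrays each, log2) in WT cells on the x axis and in BAF180-deficient cells on the y axis, with the line of equal responses dashed. The points lie along that line (r = 0.949 across genes), with 1032 genes called in both genotypes, 196 only without BAF180 and 320 only in WT.

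The size of the response was close to that of WT. Over the 1352 genes called in WT, the median ratio of the response without BAF180 to the WT response was 0.90, with quartiles of 0.786 and 1.02, and the ratio was 0.890 for rises and 0.913 for falls. Choosing genes by WT favours a large WT response, and the converse choice favours a large response without BAF180. Over the 1228 genes called without BAF180, the median ratio of WT to BAF180-deficient response was 1.01. In the same genes the median ratio of the response without BAF180 to the WT response was 0.986. With genes chosen on the mean response of both genotypes, which was a choice made after seeing the data, the ratio was 0.941 over 1303 genes.

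The ratio was smallest in replicate C. Against the mean WT response, the ratio was 0.936 for replicate A, 0.986 for B and 0.784 for C without BAF180 (SD 0.105, n = 3). Without all 4 Th2 arrays of letter C it was 0.958. The responses of the 2 genotypes correlated at r = 0.949 across genes, which are not independent replicates. No probe of 14246 (0.0%) passed an adjusted p of 0.05 for the difference of the responses in limma, where the lowest adjusted p was 0.50, and 257 probes had an unadjusted p under 0.05. The median standard error of a gene's difference of responses was 0.275 on the log2 scale, so that small differences could not be detected at this number of arrays.

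Many immediate early transcription factors rose without BAF180. Of 27 genes of this list that were measured, 12 rose and none fell, against 13 and 0 in WT, and the median response was 0.86 against 1.11 (0.76 against 0.87 with undetected genes at their bounds), where the median of all genes was -0.01 in both genotypes.

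Egr2, a zinc finger factor induced by calcium and ERK, stood at 5.13, 4.84 and 5.12 at rest and at 10.29, 10.51 and 10.71 after stimulation, a rise of 5.47 ± 0.40 (adjusted p = 2.7e-09 in limma) against 5.21 in WT. The groups did not overlap, and the 95% interval of the difference of responses ran from -0.90 to 1.43. Egr1 went from 6.01, 5.88 and 5.67 to 9.80, 10.01 and 10.42, a rise of 4.22 against 3.97 in WT. Its resting arrays all lay below the WT ones (6.46, 6.72 and 6.03), a difference of -0.55 that had an adjusted p of 1.

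Myc, the driver of growth and ribosome production, rose from 5.47, 5.50 and 5.24 to 7.19, 8.11 and 6.91, by 2.00 ± 0.31 against 2.13 in WT. Irf4, needed for effector differentiation, rose by 1.74, Irf8 by 2.63, and the AP-1 subunit Jun by 1.54. Nr4a3, an orphan nuclear receptor of the same early wave, was not well above background at rest and rose at least 4.86-fold without BAF180 and at least 6.08-fold in WT.

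Other members of this class did not rise in either genotype at 1.5 hours. Fos, the AP-1 subunit whose transcript peaks within the first hour, was at 6.31, 7.02 and 5.68 at rest and at 5.74, 5.78 and 5.76 after stimulation. Its response of -0.57 had an adjusted p of 0.25, and the groups overlapped. Dusp1, a phosphatase that turns off MAP kinases, responded by -0.17 and 0.18 without BAF180 and in WT, and Egr3 by -0.22 and 0.02. Nr4a1 was not detected on any array, and Il2 had no probe under its symbol in the table.

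Feedback genes of the NF-kappaB pathway rose in both genotypes. Of 18 genes, 10 rose and none fell without BAF180, as in WT, with medians of 1.23 and 1.36 (1.09 and 1.26 with undetected genes at their bounds). Nfkbia, which encodes the inhibitor that holds NF-kappaB in the cytoplasm, rose from 6.83, 6.53 and 6.65 to 9.90, 9.61 and 9.04, by 2.85 ± 0.27 against 2.77 in WT, and the interval of the difference ran from -0.72 to 0.87. The inhibitor gene Nfkbid rose by 3.21, and the subunits Relb, Nfkb2, Rela and Nfkb1 rose by 2.17, 2.14, 1.6 and 1.23.

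Tnfaip3, encoding the ubiquitin-editing enzyme A20, rose by 1.58 ± 0.47 (adjusted p = 0.016), and this call was lost without stimulated replicate C, where the rise was 1.26 with an adjusted p of 0.084.

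Feedback genes of MAP kinases rose in part in both genotypes. Dusp2, Dusp4, Dusp6, Errfi1 and Spred1 rose, by 2.85, 2.53, 1.68, 1.93 and 1.89, so that 5 of 11 genes rose and none fell without BAF180. The counts were the same in WT. The median response was 0.62 without BAF180 against 1.20 in WT, but the median of the gene-by-gene differences was only -0.21. The difference was below 0 in 9 of the 11 genes, against 5251 of 10419 over all genes. No gene of the list had an unadjusted p under 0.05 for the difference in limma. Dusp16, by contrast, responded by 0.62 (adjusted p = 0.16) without BAF180 and was called in WT at 1.25, while Dusp6 was called without BAF180 and had a response of 1.20 in WT that was not called. The differences of responses had unadjusted p of 0.17 and 0.46 in limma.

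Genes of the calcineurin and NFAT pathway itself mostly did not rise. Of 11 measured, Nfat5, an NFAT relative that responds to osmotic stress, rose by 1.81. The calcineurin subunits Ppp3ca and Ppp3cb fell by 1.19 and 1.26, and Nfatc3 and Rcan3 fell by 1.23 and 1.39, and the same 4 genes fell in WT.

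Cytokine genes were among the largest rises. Of 22 measured, 16 rose and 2 fell without BAF180, against 17 and 1 in WT, with medians of 3.26 and 3.56 (3.26 and 3.46 with undetected genes at their bounds). Among the 15 largest rises of all genes were Il3, Csf2, Ifng and Il17f, and the chemokines Ccl3, Ccl4 and Ccl1.

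Il3, a growth factor of mast cells and basophils, was not well above background at rest (4.21, 4.26 and 4.26) and reached 12.89, 12.93 and 11.96. It rose at least 259-fold (adjusted p = 2.0e-11) without BAF180 and at least 396-fold in WT, where the stimulated arrays read 13.60, 13 and 13.09. The neighbouring Csf2, which encodes GM-CSF, rose from 4.39, 4.66 and 4.21 to 10.75, 10.89 and 10.04, by 6.14 ± 0.22 against 6.50. In both genes all 3 stimulated BAF180-deficient arrays lay below all 3 stimulated WT arrays (11.01, 10.96 and 11.07 for Csf2), with replicate C the lowest, and neither stimulated difference passed the adjusted p.

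The Th2 cytokines rose in both genotypes. Il4, the cytokine that defines the lineage, rose from 10.48, 10.43 and 9.24 to 14.08, 14.14 and 14.20 without BAF180 and reached 14.08, 14.02 and 13.97 in WT. Its response was 4.09 ± 0.49 against 4.59, but only 3 to 7 genes were brighter on the 6 stimulated arrays. Quantile normalization sets levels there by rank, so the stimulated values and both responses are limited by the top of the scale. Il5, which drives eosinophils, rose from 4.67, 4.42 and 4.51 to 8.98, 8.19 and 8.43, by 4.00 ± 0.29 against 3.97. Il13, which acts on epithelium and mucus, rose by 3.36 ± 0.27 against 3.51. The 95% intervals of the difference of responses were -0.81 to 0.88 for Il5 and -0.95 to 0.65 for Il13. Differences within these bounds are not excluded by these arrays.

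Cytokines of other lineages rose as well. Ifng, the cytokine of Th1 cells, was not well above background on the resting arrays without BAF180 (4.27, 4.29 and 4.28) and reached 11.33, 10.50 and 10.51, at least 73.7-fold higher. Il17f, of Th17 cells, reached 9.34, 8.67 and 8.66, at least 19.9-fold higher against at least 10.7-fold in WT, and Tnf rose by 4.11. Ltb and Osm fell, by 1.05 and 1.67.

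**Figure D2:**
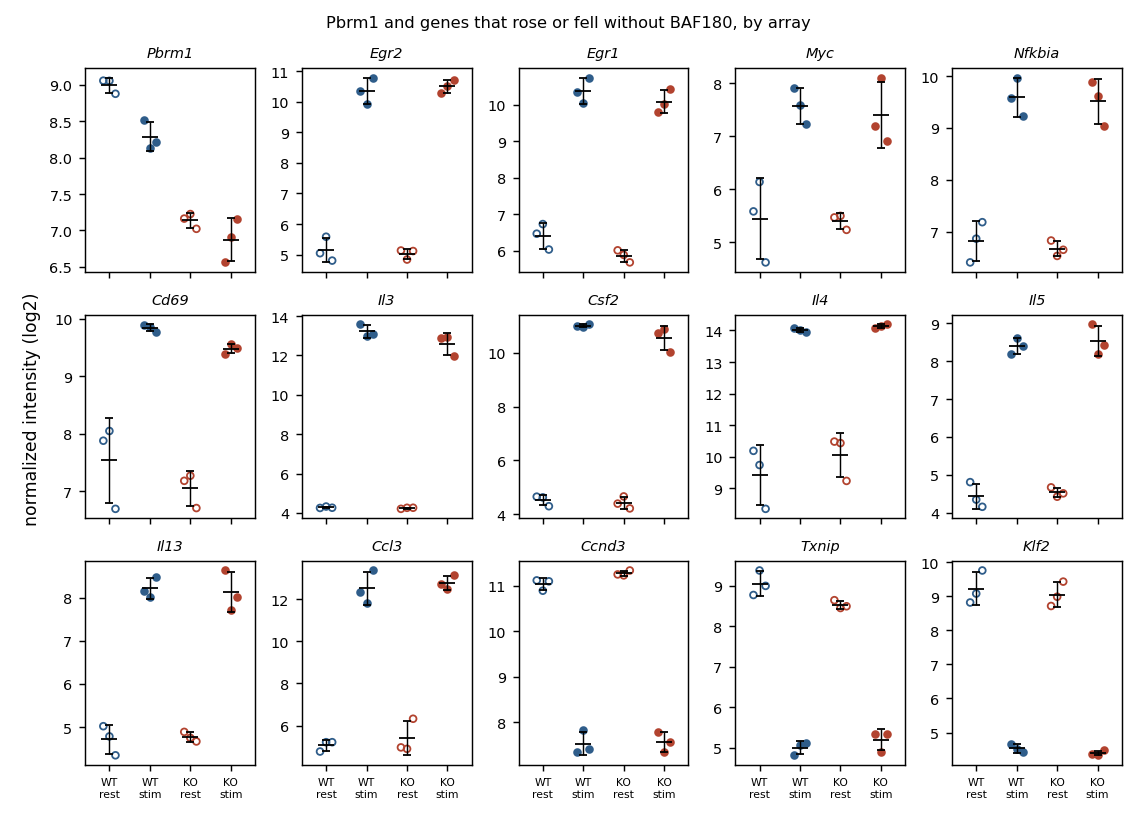
Normalized intensity (log2) on each array of WT (blue) and BAF180-deficient (red, marked KO) Th2 cells at rest (open) and after PMA and ionomycin (filled), with the mean and SD of 3 arrays. Pbrm1 was low on all 6 BAF180-deficient arrays, while Il4, Il5 and Nfkbia rose and Ccnd3, Txnip and Klf2 fell in both genotypes with no overlap of resting and stimulated arrays.

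Chemokine genes rose in both genotypes. Of 11 measured, 7 rose without BAF180 and 6 in WT, and none fell. Ccl3, which attracts monocytes and T cells, went from 4.97, 4.90 and 6.33 to 12.73, 12.47 and 13.13, by 7.38 against 7.45. Ccl4 rose by 6.80 against 6.85, with 0 to 14 genes brighter on the stimulated arrays and so with the same limit as Il4. Ccl1, the ligand of the Th2 receptor CCR8, was not well above background at rest and rose to 10.70, 10.13 and 9.07, at least 42.0-fold higher, against at least 80.6-fold in WT (11.32, 10.57 and 10.91). Its difference of responses had an unadjusted p of 0.059 in limma.

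Ligands of the TNF superfamily rose in 7 of 9 cases in each genotype, and Tnfsf13b fell in both. Their median response was 2.10 without BAF180 against 2.55 in WT (1.75 and 2.25 with undetected genes at their bounds). The difference of responses was below 0 in 8 of the 9 genes, against 5251 of 10419 over all genes. In limma 1 of the 9 had an unadjusted p under 0.05 for it. Tnfsf14, also named LIGHT, was the exception and rose by 4.42 against 4.39. Fasl, which triggers cell death, rose by 2.77, and Cd40lg, the helper signal to B cells, rose at least 2.50-fold from background. Of 22 surface receptors of activation 7 rose and 1 fell without BAF180, against 10 and 1 in WT. Their median response was nevertheless 0.82 without BAF180 and 0.59 in WT. In 10 of the 22 genes the difference of responses was below 0. Over all genes 5.14% rose without BAF180 and 5.85% in WT. Cd69, an early activation marker that holds cells in tissue, rose from 7.18, 7.27 and 6.71 to 9.39, 9.55 and 9.50, by 2.43 against 2.30. Havcr2, the inhibitory receptor TIM-3, rose by 4.09 and Lag3 by 2.31. Il2ra, the high-affinity chain of the IL-2 receptor, did not pass the test, with a response of -0.33.

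The remaining large rises came from genes outside these lists. Inhba, a subunit of activin A, rose from 4.71, 4.59 and 4.93 to 11.09, 10.80 and 11.62. Rgs16, which shortens G protein signals, rose by 5.91, Tpbg, a membrane glycoprotein, by 5.21, and Sema7a, a membrane-anchored semaphorin, by 4.47. Bdh2, a dehydrogenase, Mmp13, a collagenase, and 1810009J06Rik were not well above background at rest and rose at least 26.1-fold, 24.6-fold and 18.1-fold. Mmp13 reached 9.28, 9.76 and 8.56 without BAF180 and 8.81, 8.80 and 7.64 in WT, and 1 of its other 2 probes did not pass the test (0.23).

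Promoters of 6 of these genes are shown because they stand for the largest rises (Il3 and Csf2), for the NF-kappaB feedback (Nfkbia), for a gene whose response was smaller without BAF180 (Lif) and for the falls (Klf2 and Txnip). They run from 250 bases before to 50 after the RefSeq start in GRCm38.p6, 5′ to 3′ on the strand of the gene, and capitals mark matches on either strand to the 6 motifs described after them. Il3 lies on the minus strand at chr11:54267230-54267529, Csf2 on the minus strand at chr11:54249850-54250149, Nfkbia on the minus strand at chr12:55492598-55492897, Lif on the plus strand at chr11:4257318-4257617, Klf2 on the plus strand at chr8:72318812-72319111 and Txnip on the plus strand at chr3:96557707-96558006.
Il3: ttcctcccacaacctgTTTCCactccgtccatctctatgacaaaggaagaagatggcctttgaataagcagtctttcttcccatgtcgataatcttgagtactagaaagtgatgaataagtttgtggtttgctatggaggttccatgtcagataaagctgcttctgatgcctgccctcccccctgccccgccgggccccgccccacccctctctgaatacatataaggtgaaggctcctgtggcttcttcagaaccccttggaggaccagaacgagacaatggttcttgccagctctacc
Csf2: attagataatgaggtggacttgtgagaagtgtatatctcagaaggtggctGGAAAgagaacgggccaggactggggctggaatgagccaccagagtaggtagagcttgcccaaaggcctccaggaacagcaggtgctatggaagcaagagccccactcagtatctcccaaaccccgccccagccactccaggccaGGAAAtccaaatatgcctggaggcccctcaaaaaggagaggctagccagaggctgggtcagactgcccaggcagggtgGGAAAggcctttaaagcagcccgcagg
Nfkbia: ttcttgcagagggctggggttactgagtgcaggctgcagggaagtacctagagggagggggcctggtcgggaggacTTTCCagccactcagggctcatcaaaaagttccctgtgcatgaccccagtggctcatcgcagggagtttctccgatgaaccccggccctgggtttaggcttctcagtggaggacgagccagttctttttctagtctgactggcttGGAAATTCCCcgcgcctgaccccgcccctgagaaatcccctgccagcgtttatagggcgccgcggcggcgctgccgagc
Lif: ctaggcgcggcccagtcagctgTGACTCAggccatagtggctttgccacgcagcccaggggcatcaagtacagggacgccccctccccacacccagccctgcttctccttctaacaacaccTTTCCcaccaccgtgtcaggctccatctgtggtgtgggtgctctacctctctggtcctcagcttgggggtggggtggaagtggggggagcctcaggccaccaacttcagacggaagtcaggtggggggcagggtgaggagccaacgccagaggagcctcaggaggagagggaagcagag
Klf2: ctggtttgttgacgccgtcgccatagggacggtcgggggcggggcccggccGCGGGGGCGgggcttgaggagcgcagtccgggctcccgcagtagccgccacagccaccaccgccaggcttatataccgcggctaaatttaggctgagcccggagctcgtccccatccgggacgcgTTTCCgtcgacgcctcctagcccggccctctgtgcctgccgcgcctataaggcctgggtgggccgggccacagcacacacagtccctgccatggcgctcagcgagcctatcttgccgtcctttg
Txnip: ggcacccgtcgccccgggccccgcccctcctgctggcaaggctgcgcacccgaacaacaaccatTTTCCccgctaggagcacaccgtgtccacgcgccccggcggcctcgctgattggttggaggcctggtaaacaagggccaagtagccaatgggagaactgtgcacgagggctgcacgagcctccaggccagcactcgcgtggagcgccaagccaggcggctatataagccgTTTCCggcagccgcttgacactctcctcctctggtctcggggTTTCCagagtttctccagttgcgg

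The motifs searched were the CArG box and the NF-kappaB site, given by name alone, CRE (TGACGTCA), AP-1 (TGANTCA), NFAT (GGAAA) and EGR (GCGNGGGCG). The NF-kappaB site of Nfkbia, from -29 to -20 relative to the start, overlaps an NFAT match, and Csf2 held 3 NFAT matches, among them -55 to -51. Lif held an AP-1 match from -228 to -222 and Klf2 an EGR match from -199 to -191. These are letter matches and not binding sites, and no match says only that the letters are not in this window.

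Promoters were given for 8259 of the genes kept, 429 of the called rises and 559 of the called falls. NF-kappaB sites were in 8.78% of 558 promoters of rising genes, 6.23% of 771 promoters of falling genes and 5.18% of all 10606 promoters. AP-1 matches were in 7.71%, 4.67% and 5.72%, and CRE matches in 3.58%, 1.17% and 2.81%. NFAT matches were common, in 64.9%, 55.6% and 59.2%. EGR matches were in 8.60%, 9.08% and 9.47%, and CArG boxes in 1.97%, 1.82% and 1.34%. No test was run on these shares.

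Some genes that mark the resting state fell in both genotypes, and most did not pass as falls without BAF180. Of 22 genes of quiescence and homing, 9 fell and 4 rose without BAF180 against 11 and 3 in WT, with medians of -0.72 and -1.04 (-0.71 and -1.04 with undetected genes at their bounds).

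Klf2, a factor that keeps T cells quiescent and recirculating, went from 8.71, 8.98 and 9.43 to 4.37, 4.35 and 4.48, where it was not well above background. It fell at least 20.8-fold (adjusted p = 3.6e-12) without BAF180 and at least 23.5-fold in WT. Txnip, a thioredoxin-binding inhibitor of glucose uptake, went from 8.64, 8.45 and 8.49 to 5.34, 4.91 and 5.35. It fell by 3.32 without BAF180, while the WT response was -4.03. Its resting arrays lay below all WT ones (8.77, 9.37 and 8.99), and the difference of responses was 0.71 with an unadjusted p of 0.016.

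Tsc22d3, a glucocorticoid-induced leucine zipper protein, fell by 2.91, and Tcf7, a factor of naïve and memory cells, by 1.73. Pik3ip1, an inhibitor of PI3 kinase, fell at least 3.04-fold into background. In contrast Rgs16, Slfn2, Foxp1 and Rgs1 of this list rose.

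Large falls also came from genes outside the list. Ccnd3, cyclin D3, went from 11.25, 11.23 and 11.34 to 7.78, 7.34 and 7.56, a response of -3.71 ± 0.20 against -3.51 in WT. Myo6, an actin motor, went from 11.46, 12.18 and 11.46 to 6.83, 6.40 and 8.36, and replicate C was the highest after stimulation in both genotypes. The sialyltransferase gene St8sia4 responded by -3.28 and the fatty acid elongase gene Elovl5 by -3.00. The membrane scaffold gene Slc9a3r1 and Depdc1b each responded by -2.95.

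**Figure D3:**
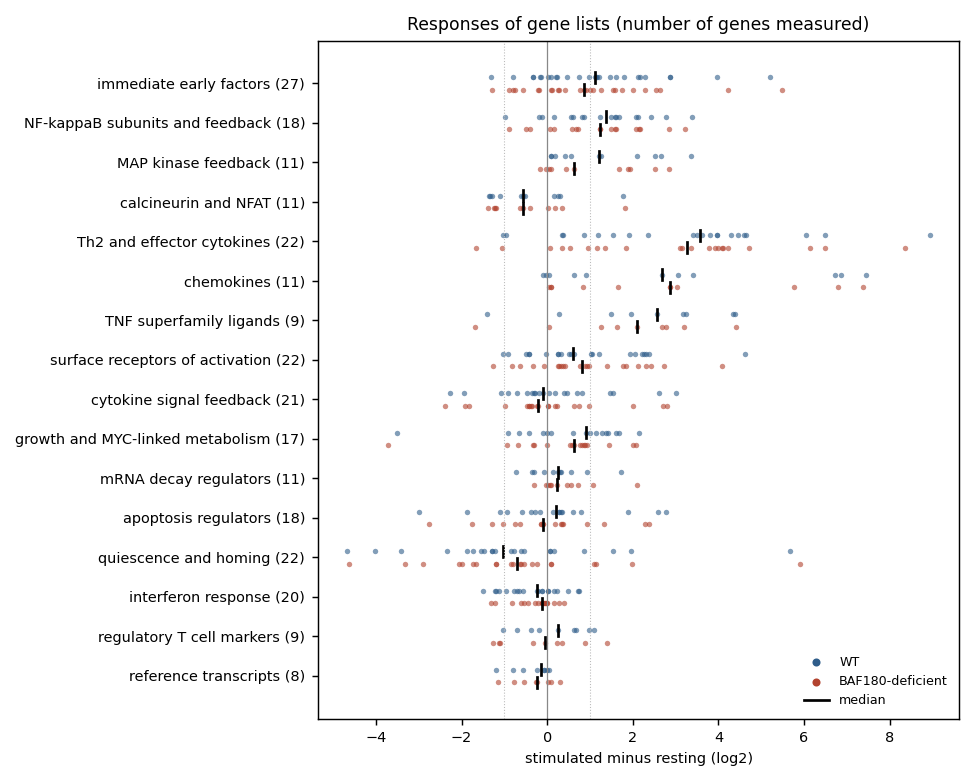
Responses (stimulated minus resting, log2) of the measured genes of 16 lists in WT (blue) and BAF180-deficient (red) Th2 cells, 1 point per gene, with the median of each list as a black bar and dotted lines at 2-fold. Cytokines, chemokines and TNF superfamily ligands lie furthest to the right and quiescence genes to the left in both genotypes.

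Some genes responded less without BAF180 in these arrays. The 10 genes with the lowest unadjusted p for the difference of responses are given as a description, since none passed the adjustment over all probes.

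Upp1, which encodes uridine phosphorylase of nucleotide salvage, was first. It was not well above background at rest without BAF180 (4.51, 4.52 and 4.52) and reached 5.60, 5.15 and 5.71, while WT went from 4.72, 4.45 and 4.94 to 7.13, 7.37 and 7.0. It rose at least 1.88-fold without BAF180 (adjusted p = 0.0035), against a WT response of 2.46. The difference of responses was -1.49 ± 0.33 (unadjusted p = 0.000195), and the other 2 probes of the gene gave -1.15 and -0.79. After stimulation all BAF180-deficient arrays lay below all WT arrays, by 1.68 ± 0.23 with an adjusted p of 0.0037 in limma. In that comparison of stimulated cells 4 of 14246 probes (0.0281%) passed, 2 of them for Upp1 and the others for Pbrm1 and Sln.

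Lif, a cytokine of the IL-6 family, rose from 6.69, 5.98 and 6.81 to 7.72, 7.39 and 7.84 without BAF180 and from 5.89, 5.40 and 4.84 to 7.57, 8.03 and 7.61 in WT. The stimulated levels overlapped, the response was 1.16 ± 0.24 against 2.36, and the interval of the difference was -1.91 to -0.49. Without resting replicate B of the BAF180-deficient cells its rise was 0.90 and no longer reached 2-fold. Tnfsf11, which encodes RANKL, rose from 5.21, 4.73 and 4.93 to 8.39, 8.10 and 7.98 without BAF180 and from 4.58, 4.49 and 4.46 to 9.03, 8.68 and 8.81 in WT, by 3.20 against 4.33. Here the BAF180-deficient arrays were higher at rest and lower after stimulation.

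Slc7a3, a transporter of cationic amino acids, was at 5.65, 5.61 and 6.02 at rest and 6.70, 6.36 and 6.35 after stimulation without BAF180. Its response of 0.71 had an adjusted p of 0.078, against 2.19 in WT, where stimulated replicate C (6.97) stood far below A and B (8.45 and 8.67). Without that WT array the difference of responses was -2.01 with an adjusted p of 0.0036. Leaving out stimulated WT replicate A instead left 1 probe, of Upp1, past the adjusted p (-1.01, adjusted p = 0.0499).

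Falls differed in the same table. Sbk1, a kinase gene, and Adcy6, an adenylyl cyclase, responded by -2.07 and -0.64 without BAF180. In stimulated WT cells neither was well above background, and they fell at least 6.67-fold and 2.84-fold. Plcd1, a phospholipase C, and Ubtd1 responded by -1.41 and -1.33 without BAF180 and by -0.62 and -0.67 in WT. The resting level was lower without BAF180 for Sbk1 and Adcy6 and higher for Plcd1 and Ubtd1, with no overlap of the arrays in any of the 4 genes. The response and the resting difference share the same resting arrays, so that these values are not independent.

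**Figure D4:**
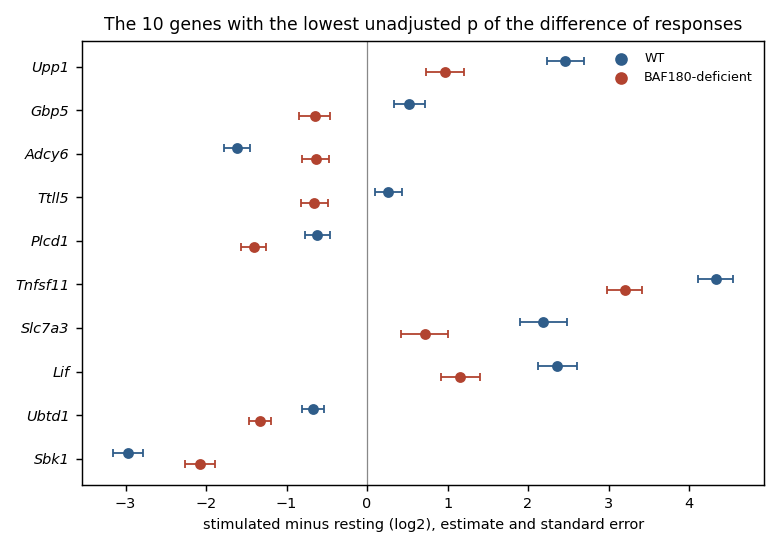
Response to PMA and ionomycin (log2) of the 10 genes with the lowest unadjusted p of the difference of responses, as estimate and standard error from the fit, in WT (blue) and BAF180-deficient (red) cells. Upp1, Tnfsf11, Slc7a3 and Lif lie further to the right in WT, and Gbp5 and Ttll5 lie on opposite sides of 0, though no difference passed the adjusted p.

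Some response genes lay higher at rest without BAF180 on all arrays, though none of them passed the adjusted p. By the test over all probes only 4 of 14246 (0.0281%) differed between the genotypes at rest, those of Pbrm1, Hsd17b11, Adcy6 and Gnaz, and 489 probes had an unadjusted p under 0.05. Of 22 fits, Pbrm1 was called in all, Hsd17b11 in 8 and Adcy6 and Gnaz in 4 each, and with the replicate block Gnaz was no longer called. Over all genes, every resting array without BAF180 exceeded every resting WT array in 5.81% of genes and fell short of it in 4.47%, and by at least 0.5 between the means in 1.01% and 0.71%. Of 327 measured genes of the lists, 16 (4.89%) lay above and 10 (3.06%) below by that amount. Outside the genes that the study chose on these samples the counts were 10 and 7 of 300 (3.33% and 2.33%). With 3 arrays against 3, an exact permutation test cannot go below p = 0.10. The list genes named below were chosen by these resting arrays, which also enter the responses. Their differences of response are therefore not independent of that choice.

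Il10, the anti-inflammatory cytokine at the centre of the study, had the largest such difference among the list genes. It stood at 9.55, 9.29 and 8.60 at rest without BAF180 and at 7.73, 7.79 and 6.84 in WT, a difference of 1.69 ± 0.56 (unadjusted p = 0.0065, adjusted p = 0.99). It rose in both genotypes, to 12.32, 12.12 and 12.28 without BAF180 and to 11.53, 10.95 and 11.77 in WT. The response was 3.09 ± 0.56 (adjusted p = 0.00028) against 3.97, and the interval of the difference of responses, -2.52 to 0.77, included 0. All BAF180-deficient arrays thus lay above all WT arrays of the same state, before and after stimulation.

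Il24, a member of the same cytokine family, was at 10.04, 9.62 and 9.54 at rest without BAF180 and at 9.43, 8.83 and 6.76 in WT, where replicate C was far below the others. After stimulation the genotypes overlapped (12.81, 12.52 and 13.33 against 12.44, 13.09 and 13.39), and the response was 3.16 against 4.63. Lif, described above, likewise started 1.12 ± 0.24 higher (adjusted p = 0.22), and its stimulated arrays overlapped those of WT.

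Furin, a protease that cleaves TGF-beta and other precursors, stood at 9.19, 9.19 and 9.12 at rest without BAF180 and at 8.75, 8.07 and 8.04 in WT. It reached 11.60, 12.15 and 12.13 against 11.97, 12.04 and 12.62, a response of 2.79 ± 0.32 against 3.92. Rgs1, which dampens chemokine receptor signals, stood at 9.80, 10.30 and 9.76 against 9.21, 8.53 and 8.87 at rest and ended at 10.75, 11.01 and 11.41 against 10.40, 10.82 and 11.24. Its rise of 1.1 ± 0.34 (adjusted p = 0.020) was lost without resting replicate A or C or stimulated replicate C of the BAF180-deficient cells, at the lowest 0.92.

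Slamf1, a costimulatory receptor, Hk2, the first enzyme of glycolysis, Lta, a TNF family cytokine, and Tgfb1 showed the same order, higher by 0.59, 0.84, 0.76 and 0.60 at rest. Slamf1 rose by 1.76 against 2.22. The responses of Hk2, Lta and Tgfb1 were 0.81, 0.95 and 0.34 without BAF180 and 1.6, 1.53 and 0.87 in WT, and only the first 2 were called in WT, none without BAF180. For these 4 genes the stimulated arrays of the genotypes overlapped. Csrnp1, an immediate early nuclear protein, was 1.34 higher at rest and responded by 0.42 (adjusted p = 0.73), while in WT its arrays spread from 6.75 to 8.45 at rest.

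**Figure D5:**
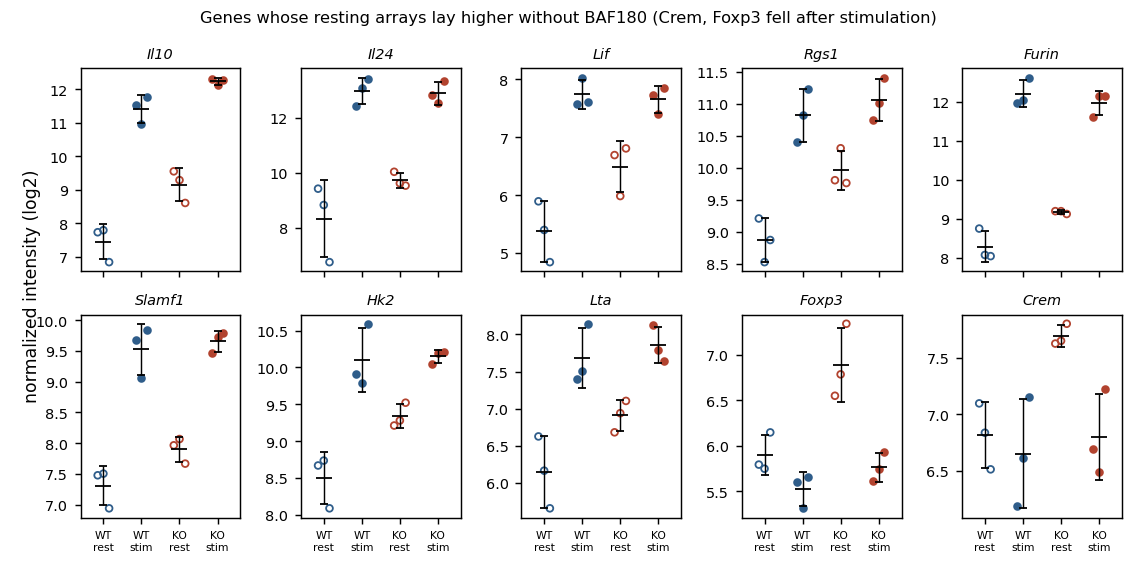
Normalized intensity (log2) on each array of WT (blue) and BAF180-deficient (red, marked KO) Th2 cells at rest (open) and after PMA and ionomycin (filled), with the mean and SD of 3 arrays. The 10 genes were chosen because their 3 resting BAF180-deficient arrays lie above the 3 resting WT arrays. Only in Il10 do the stimulated arrays of the genotypes stay apart.

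Other genes that were higher at rest fell or did not move. Foxp3, the defining factor of regulatory T cells, stood at 6.55, 6.78 and 7.34 at rest without BAF180 and at 5.79, 5.75 and 6.14 in WT, a difference of 1.00 ± 0.27 (adjusted p = 0.46). It fell without BAF180 to 5.61, 5.74 and 5.93, by 1.13, and was at 5.60, 5.31 and 5.66 in stimulated WT cells. Without resting replicate C the fall was 0.90 on the log2 scale and no longer reached 2-fold, and its 2 dimmer probes gave -0.69 and -0.28. Ikzf4, a partner of Foxp3, was higher by 0.56 at rest and fell by 1.1. Crem, a cAMP-responsive factor, was higher by 0.87 at rest and responded by -0.89 (adjusted p = 0.020). Summed regulatory T cell markers ran from 2790 to 3630 at rest and 1910 to 2320 after stimulation without BAF180, against 2100 to 2710 and 1720 to 2090 in WT, and all 9 markers kept were detected on all 6 arrays without BAF180.

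Genes that were lower at rest without BAF180 included Egr1, Jak2, Txnip, Tsc22d3 and Tcf7. Jak2, a kinase of cytokine receptors, stood at 7.79, 8.20 and 8.20 against 8.73, 8.88 and 8.85 in WT and rose by 2.79 to 10.68, 11.19 and 10.68, which was still below all stimulated WT arrays (11.60, 11.48 and 11.19). Its response was close to the WT value of 2.60. Cd28, the costimulatory receptor, was lower by 0.51, B2m, the light chain of MHC class I, by 0.53, and Bik, a pro-apoptotic BCL2 relative, by 0.74, and none of these 3 passed the test of the response. Cmpk2, an interferon-induced kinase, was lower by 1.08 at rest (adjusted p = 0.19) and was called lower in WT alone, where it fell into background. Without resting WT replicate C its resting difference was -1.45 with an adjusted p of 0.0013.

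The genes that the study named as higher without BAF180 in Th2 cells were chosen on these samples. Their array values are therefore no independent evidence of their direction. For Il10 the paper also reported higher levels by RT-PCR and by intracellular protein staining, and it measured Cdkn2a by RT-PCR. Those assays are not part of these arrays. Of 13, 8 lay above at rest with no overlap, 4 rose after stimulation and 1 fell. Of the 14 genes the study named as lower, 6 lay below at rest, and 2 rose and 3 fell after stimulation. Over all genes 5.81% lay above and 4.47% below at rest with no overlap. After stimulation without BAF180, 5.14% of all genes rose and 6.64% fell.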

How the data were processed

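RNA of all samples was hybridised to Illumina MouseRef-8 arrays, and the authors deposited bead intensities from GenomeStudio (version 1.6.0 per the labels) without background subtraction, with a detection p-value per probe. Intensities were background-corrected and quantile-normalized together over 24 arrays with neqc (limma 3.58.1, offset 16), and 14246 of 25697 probes, of 10419 genes, were retained because some array detected them (detection limit 0.02). limma was fitted to 8 group means with Benjamini-Hochberg adjustment over the kept probes, and the scripts were tested on simulated data. The number of arrays limits the precision.

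A gene is represented by its brightest probe, and probe names were updated through RefSeq tables. Where all probes of a gene were undetected in a group, "at least" folds use the lowest detected signal of each array. Named were the 15 largest rises and 10 largest falls, the 10 lowest p-values of the difference of responses, list genes that differed at rest, a fixed set, and members of each list, of which a few are not reported here. The members, lists and named genes were chosen with earlier results of these data known. Same-lettered resting and stimulated arrays deviated together without BAF180 (r of 0.355, 0.290 and 0.427) but less clearly in WT (0.0232, 0.383 and 0.376). Between the genotypes, same-lettered resting arrays gave r of 0.0474, 0.181 and 0.621 for A, B and C. Alternatives covered normalization, filtering, the fit, the replicate block and single arrays. They also covered the study's limits on Z-ratio, false discovery rate and p, applied to the limma values.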

Additional observations from a re-analysis of the deposited data

Results flagged for a closer look

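Gbp5, an interferon-induced GTPase, moved in opposite directions in the genotypes. Taken letter by letter, its response was -0.69, -0.79 and -0.47 without BAF180 and 0.19, 0.73 and 0.65 in WT, a difference of -1.18 ± 0.27 (unadjusted p = 0.00029 in limma). Its resting level was 6.03, 6.06 and 6.03 without BAF180 and 5.77, 5.12 and 5.46 in WT.

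Ttll5, an enzyme that adds glutamate to tubulin, responded by -0.66, -0.72 and -0.59 without BAF180 and by 0.07, 0.65 and 0.08 in WT, a difference of -0.92 (unadjusted p = 0.00095 in limma). Its signal was dim, detected on 1 of 3 stimulated BAF180-deficient arrays and 2 of 3 resting WT arrays. In WT its resting and stimulated arrays overlapped, and the response had an adjusted p of 0.30 in limma. Cd28 responded by 0.22, 0.17 and 0.41 without BAF180 and by -0.45, -0.89 and -0.18 in WT, a difference of 0.77 (unadjusted p = 0.042 in limma), and its other 2 probes gave 0.35 and 0.46. None of these differences passed the adjustment over all probes. The letters are not known to mark pairs of arrays, so the values by letter are a description.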

How the results depend on the processing

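Counts of called genes depended on the background correction and on the fold limit. Without background correction 349 genes rose and 400 fell, the Z-score normalization gave 320 rises, and with no fold limit 1214 rose and 1603 fell. Leaving out single Th2 arrays gave 489 to 582 rises, 628 to 773 falls and a median ratio of 0.870 to 0.942, and without all 4 Th2 arrays of letter C, a choice made after seeing the data, the ratio was 0.958. The difference of responses had no probe past the adjusted p in any setting except 1 probe each without stimulated WT replicate A or C, a range of 0 to 1. At rest the count of 4 probes became 1 with neqc over the Th2 arrays or with only the resting arrays fitted. It became 2 without a detection filter or with the strict one. The study's limits on Z-ratio, false discovery rate and p gave 12 probes when applied to the limma values. That is not the study's own procedure, and its criterion on signal intensity was not applied. With single arrays left out the count was 1 to 4. It was 1 without any one of 7 arrays, stimulated BAF180-deficient A and B, stimulated WT A, B and C, resting BAF180-deficient A and resting WT B, and 2 without stimulated or resting BAF180-deficient C or resting WT A. Pbrm1 was called in all 22 fits. With the replicate block 545 genes rose and 706 fell, 1227 of the 1228 calls were shared, 0 and 3 probes passed in the other tests, the ratio stayed at 0.90, and the block changed no other count by over 1.5 times. Among named genes no value turned its sign. The rise of Lif was under 2-fold without background correction (0.93) and with the Z-score (0.78), as was the fall of Foxp3 (-0.83 and -0.95), and Tnfaip3 lost its call with the Z-score (1.15, adjusted p = 0.15). Fold changes of dim probes, whose background correction sets their size, are the least certain.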

Other observations

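Growth genes linked to MYC responded in part. Of 17 measured, 3 rose without BAF180 and 7 in WT, and Ccnd3 fell in both. Over all genes 5.14% and 5.85% rose. The medians of the list were 0.63 and 0.905, and the median of the gene-by-gene differences was -0.14. In limma 1 gene had an unadjusted p under 0.05 for the difference, and none passed the adjusted p. Odc1 and Srm, enzymes of polyamine synthesis, rose by 2.06 and 2.01, and the nucleolar gene Nop56 by 1.44. Slc7a5, a transporter of large neutral amino acids, was at 10.04, 10.08 and 10.78 at rest and 10.88, 11.34 and 10.96 after stimulation without BAF180, a response of 0.76 that passed the adjusted p but not the 2-fold limit, against 1.43 in WT.

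Regulators of apoptosis moved both ways. Bcl2a1d, Gadd45b and Bcl2l1, which protect activated cells or answer stress, rose by 2.38, 2.28 and 1.32, and Bbc3, Bcl2 and Bad fell by 2.76, 1.75 and 1.30, so that 3 of 18 rose and 3 fell in each genotype. Of 11 regulators of mRNA decay, Zfp36l1, which binds AU-rich elements, rose by 2.10 and Btg1 by 1.07. Of 21 genes of cytokine signal feedback, Jak2, Stat5a and Ptpn22 rose, by 2.79, 2.70 and 2.00, while Socs2, Socs3 and Stat4 fell, by 1.93, 1.82 and 2.39.

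Among 9 genes of Th1 and Th17 cells, Tbx21, the master factor of Th1 cells, rose by 3.08 against 3.13 in WT, and the chemokine receptor gene Cxcr3 by 1.07 against 1.77. Of 20 interferon-response genes none rose in either genotype. Without BAF180 1 fell (Eif2ak2, by 1.30), against 3 in WT, where over all genes 6.64% and 7.13% fell. At rest the median difference of this list between the genotypes was -0.58, with 2 genes below and 1 above without overlap. Over all genes 4.47% lay below and 5.81% above in that way. Of 16 SWI/SNF subunits, Smarca2, an ATPase of the complex, fell by 2.19 and Bcl7a by 1.16 without BAF180, and by like amounts in WT (-2.0 and -1.16), while Smarca4, the other ATPase, responded by 0.50. Of 8 reference transcripts, Tubb5 fell by 1.14 and Gapdh responded by -0.25.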
